A study of Mus musculus with 11 samples.

Results

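Aopep, Tns3, Prdm16, Msi2, Tcf4, Zfhx3 and Zmiz1 are 7 long mouse genes that carried many peaks of Rpb1, the catalytic core subunit of RNA polymerase II, along their bodies in a tumour-derived cell line. They are 7 of 21631 protein-coding genes on chromosomes 1 to 19 and X, and 7 of the 2427 that span at least 100 kb. They were chosen on a measured value, the length of gene body covered by peaks of the Rpb1 antibody written S2 in line M00001, so that length and everything computed from S2 alone describes them and is no finding. All comparisons below are descriptions without a test, because each target had 1 library per line.

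The series holds 11 CUT&RUN libraries from 2 tumour-derived mouse cell lines, M00001 and M00002, each from 1 mouse by its label. CUT&RUN tethers a nuclease to an antibody bound in permeable cells and sequences the fragments that it cuts free. Both lines express the HA-tagged fusion, labelled CRfus1 and taken here as the ZFTA-RELA fusion of supratentorial ependymoma named in the series title, and both grew untreated in neural basal medium with growth factors. M00001 gave HA, Cbp, p300, Rpb1 S2, Rpb1 S5 and IgG, and M00002 gave HA, p65, H3K27ac with antibody ac4729, H3K27ac with antibody ac647, and IgG. Within M00001, the sample titles of Cbp, p300, S2 and S5 share a code of unstated meaning that is missing for HA and IgG. These 4 libraries may therefore have been prepared apart, which cannot be told apart from their targets. The sources used here name no line without the fusion, so no value below compares cells with and without it. S2 and S5 were read only in M00001 and p65 and H3K27ac only in M00002, so wherever these are set beside each other, line and target cannot be told apart. The lists ran from 1806 peaks for IgG of M00001 to 30680 for HA of M00002, and read depth is unknown for all 11.

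During transcription the tail of Rpb1 is phosphorylated at serine 5 near gene starts, and at serine 2 as the polymerase elongates through the gene and past its end, where transcripts are cleaved. H3K27ac marks active promoters and enhancers, and Cbp and p300 are related acetyltransferases that write it. p65 is the product of Rela, the NF-kappaB gene that supplies part of the fusion. Whether the p65 antibody also bound the fusion is not given, so HA and p65 peaks cannot be taken as separate factors. Prdm16, Zfhx3 and Tcf4 encode DNA-binding regulators, Zmiz1 a PIAS-like coactivator and Msi2 an RNA-binding protein of progenitor cells, while Tns3 encodes a tensin adaptor of focal adhesions and Aopep an aminopeptidase.

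At the gene starts the members differed in which targets were present. Promoter windows of 250 bases before to 50 after the start are in RefSeq (GRCm38.p6, the assembly behind mm10) for 6 of the 7 genes, Tcf4 being the exception. The windows of Prdm16, Msi2, Zfhx3 and Zmiz1 are shown because each carried a different set of peaks; each is read on the gene's own strand.
Prdm16 (chr4:154636824-154637123, minus strand): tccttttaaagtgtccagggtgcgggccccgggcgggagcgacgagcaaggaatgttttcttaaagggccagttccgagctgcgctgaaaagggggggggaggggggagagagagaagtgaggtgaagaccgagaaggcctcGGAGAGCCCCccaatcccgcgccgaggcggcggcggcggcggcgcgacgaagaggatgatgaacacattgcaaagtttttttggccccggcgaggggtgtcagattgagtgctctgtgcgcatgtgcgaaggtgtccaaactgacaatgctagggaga
Msi2 (chr11:88718228-88718527, minus strand, the most upstream of 3 listed starts): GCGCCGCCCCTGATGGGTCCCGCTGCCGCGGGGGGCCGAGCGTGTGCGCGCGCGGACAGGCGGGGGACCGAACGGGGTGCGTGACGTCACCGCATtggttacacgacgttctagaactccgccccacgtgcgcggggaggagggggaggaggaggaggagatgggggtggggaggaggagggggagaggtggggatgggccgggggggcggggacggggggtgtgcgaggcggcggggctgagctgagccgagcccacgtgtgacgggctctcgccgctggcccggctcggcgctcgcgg
Zfhx3 (chr8:108714394-108714693, plus strand): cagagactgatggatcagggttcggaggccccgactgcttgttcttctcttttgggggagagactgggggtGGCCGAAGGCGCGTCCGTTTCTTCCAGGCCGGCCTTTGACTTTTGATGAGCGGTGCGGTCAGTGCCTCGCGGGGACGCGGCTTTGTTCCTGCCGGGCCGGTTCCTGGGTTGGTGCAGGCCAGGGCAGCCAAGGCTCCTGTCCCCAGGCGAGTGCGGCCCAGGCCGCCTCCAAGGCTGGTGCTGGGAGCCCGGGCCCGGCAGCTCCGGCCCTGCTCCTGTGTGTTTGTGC
Zmiz1 (chr14:25458935-25459234, plus strand): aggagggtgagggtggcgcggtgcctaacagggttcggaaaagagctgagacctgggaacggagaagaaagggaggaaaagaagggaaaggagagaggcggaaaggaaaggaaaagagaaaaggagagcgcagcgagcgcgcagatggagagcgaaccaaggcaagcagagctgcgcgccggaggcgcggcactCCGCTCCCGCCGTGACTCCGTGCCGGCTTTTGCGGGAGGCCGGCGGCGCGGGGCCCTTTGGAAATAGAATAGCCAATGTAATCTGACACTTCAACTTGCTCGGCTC
In the Prdm16 window the capitals mark bases 143 to 152, a match to the NF-kappaB motif on either strand. In the Msi2 and Zmiz1 windows they mark the 95 and 106 bases inside an HA peak of M00002, and in the Zfhx3 window the 229 bases inside an S5 peak of M00001. The other 3 windows shown held no match to this motif, and neither did those of Aopep and Tns3; of all 32851 RefSeq mouse promoter windows of this length 4.51% held at least 1. The match is a description of these letters and no evidence of binding.

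Prdm16, a zinc finger regulator of stem cells and brown fat, had HA over its start in both lines. The HA peak of M00001 covered all 300 bases of the window, with a fold enrichment of 9.39, and the HA peak of M00002 covered 293 of them, with a fold of 10.7. Fold enrichment is the authors' value at the peak summit over the peak caller's background, and it ranks peaks only within a list. p65 in M00002 covered 293 bases of the window with a fold of 9.25, and the motif match lay inside all 3 of these peaks. H3K27ac of both antibodies was also within 1 kb of the start, with folds of 1.99 for ac4729 and 2.39 for ac647. No S2 peak lay within 1 kb of this start, and the first in the gene had its summit 34.7 kb in.

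Msi2, the RNA-binding protein gene, had S2 and HA together just before its start. The S2 peak covered 156 bases of the window shown and began 95 bp upstream of that start, with a fold of 4.1. HA was found there in M00001 with a fold of 4.85 and in M00002 with a fold of 8.06, and H3K27ac with folds of 3.88 for ac4729 and 3.39 for ac647. An end of C030037D09Rik, an lncRNA gene, lies 0.3 kb upstream of Msi2, so the peaks cannot be assigned to 1 of the pair.

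Zmiz1 had S2 over its start, with a fold of 3.18, and in M00002 HA and p65 over it, with folds of 9.07 and 5.86. H3K27ac with ac4729 lay 108 bp inside, with a fold of 2.27. HA of M00001 was not called within 1 kb of this start, the nearest peak being 37146 bp into the gene. The gene table begins Zmiz1 1.31 kb upstream of this listed start. An S5 peak with a fold of 2.98 lay just outside that earlier start, 1418 bp before the listed one. Aopep carried S2 over its start, with its highest S2 fold of 5.0 (the range over its S2 peaks was 1.69 to 5.0), and S2 was the only target within 1 kb. Zfhx3, a zinc finger homeobox gene, had S2 53 bp inside its listed start with a fold of 2.72. S5 lay across that start with a fold of 3.13, the only S5 peak within 1 kb of the listed start of any member. H3K27ac of both antibodies also lay across it, with folds of 2.09 for ac4729 and 2.27 for ac647. Tns3 had no S2 or S5 within 1 kb of its start. It had H3K27ac over the start with ac4729 (fold 4.72) and 519 bp inside with ac647 (fold 3.61). HA of M00002 lay 629 bp inside (fold 6.3), and the first S2 summit of Tns3 was 8.0 kb in.

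S2 along the gene bodies came as many short peaks and not as a continuous block. The 7 bodies sum to 2530.2 kb and held 119 S2 peaks that covered 51046 bp, or 2.02% of that length; 59 of the 119 had a −log10 q of at least 5. The word broad in the working name of these genes therefore stands for sites spread along the body, and little of the DNA lay under peaks. By number of S2 peaks among all protein-coding genes the members ranked from 2 for Aopep to 31 for Zmiz1. Among the members that share ran from 0.952% in Zfhx3 to 3.41% in Tns3, against a median of 0.185% over all 2427 long genes. Ranked by share among all protein-coding genes, short genes with 1 peak included, none of the 7 stayed among the first 9. Among the 2427 long genes alone, the ranks by share ran from 5 for Tns3 to 63 for Msi2, with Zfhx3 at 304.

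By covered length the order was Aopep with 8469 bp, Tns3 with 7939 bp, Prdm16 with 7528 bp, Msi2 with 7306 bp, Tcf4 with 6823 bp, Zfhx3 with 6495 bp and Zmiz1 with 6486 bp. These values chose the genes. Sfi1, a centrosome gene of 71.5 kb with 9600 bp, and Col23a1, a collagen gene with 7042 bp, rank among them and are not listed; Sfi1 also had 3 IgG peaks of M00001 and 14 IgG peaks of M00002 in its body. Directly after Zmiz1 came Farp1 with 6480 bp, only 6 bp less, then Fndc3b with 6331 bp and Tead1 with 6318 bp. The edge of the group is thus a difference far below the width of 1 peak, the median S2 peak in the whole list being 349 bp wide.

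**Figure D1:**
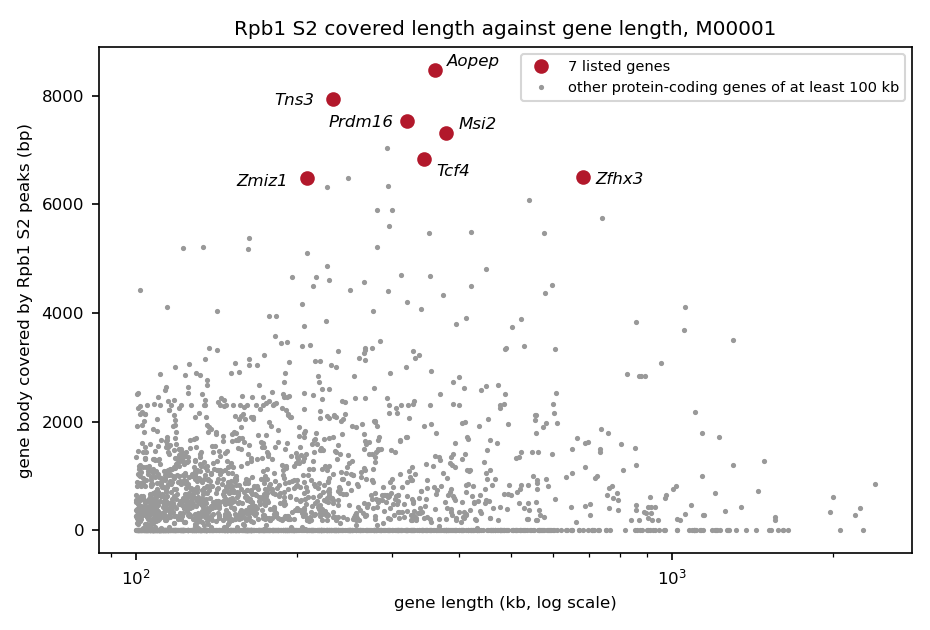
Length of gene body covered by Rpb1 S2 peaks in M00001 (bp) against gene length (kb, log scale) for protein-coding genes of at least 100 kb. The 7 listed genes, in red, lie between 6486 and 8469 bp at lengths of 208.9 to 682.3 kb; the other long genes are in grey, and the median of all long genes is 372 bp.

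Spread differed among the members. Each body was cut into 10 equal parts, and Aopep, Tns3, Msi2 and Zmiz1 had S2 in 9 of them, Prdm16 and Tcf4 in 8, and Zfhx3 in 4. In Tns3 (chr11:8431652-8664758, minus strand, 233.1 kb) the 16 peaks had summits between 8.0 and 225.0 kb, a median spacing of 12.7 kb and a longest gap of 45.4 kb. Its highest S2 fold, 5.3, was 196.0 kb into the gene. Zmiz1 (chr14:25457875-25666743, plus strand, 208.9 kb) had 12 peaks, the fewest, which were the widest by median at 454.5 bp, and its folds lay in the narrow range of 2.67 to 3.74.

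Aopep (chr13:62964893-63326096, plus strand, 361.2 kb) had 20 S2 peaks, 14 of them after its midpoint. Its last 24.8 kb are shared with Fancc, a DNA repair gene, and 6 S2 peaks covering 2135 bp lay in the shared stretch; peaks of the pair cannot be told apart there. Without that stretch Aopep had 6334 bp and ranked 10 in place of 2. Just before the shared stretch lies a miRNA cluster within Aopep, at 335.6 to 336.4 kb, and the nearest S2 peak, chr13:63301815-63302017, had a fold of 1.94. Mature miRNAs encoded near S2 peaks in Aopep and Zfhx3 are shown as the annotated products of those stretches, and they differ in their seeds (bases 2 to 8, in capitals).
mmu-miR-27b-3p: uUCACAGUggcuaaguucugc
mmu-miR-24-3p: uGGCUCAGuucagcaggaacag
mmu-miR-3108-5p: gUCUCUAAagcuagacguuccgg
The peak lay 1035 bp from the bases of mmu-miR-27b-3p and 543 bp from those of mmu-miR-24-3p. The third sequence belongs to Mir3108, which lies 657.6 kb into Zfhx3, 412 bp from an S2 peak with a fold of 2.47. Peaks of this width do not show which transcript the polymerase was making.

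In Zfhx3 (chr8:108279311-108961636, plus strand, 682.3 kb) no S2 peak lay in the first 417.0 kb, and all 18 lay between 417.1 and 666.3 kb. The gene table extends 435.3 kb further upstream than the start in the promoter table. From that listed start the gene spans 247.0 kb, with 16 S2 peaks, 6065 bp, 2.46% covered and S2 in 9 of 10 parts, and it would rank 13. Its low share and its empty first part thus go with the longer gene model. Wholly before the listed start the longer model still held 2 S2 peaks, 1 S5 peak, 6 HA peaks of M00002 and 9 H3K27ac peaks with ac4729, and 1 S5 peak and 1 ac4729 peak lay across the start.

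Prdm16 (chr4:154316122-154637360, minus strand, 321.2 kb) had 19 S2 peaks, 12 of them before the gene's midpoint, and no summit between 242.6 and 308.2 kb. Msi2 (chr11:88339382-88718306, minus strand, 378.9 kb) had 17 between 12.9 and 361.1 kb, with a gap of 67.6 kb from 250.3 to 317.9 kb. Tcf4, the gene of a bHLH E protein (chr18:69343429-69687967, 344.5 kb), had 17, with 11 on the higher-coordinate side of its midpoint; its strand is not in the tables used here, so its positions are counted from the lower coordinate. The longest stretches without S2 in these 3 genes ran from 60.5 kb in Tcf4 to 67.6 kb in Msi2.

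**Figure D2:**
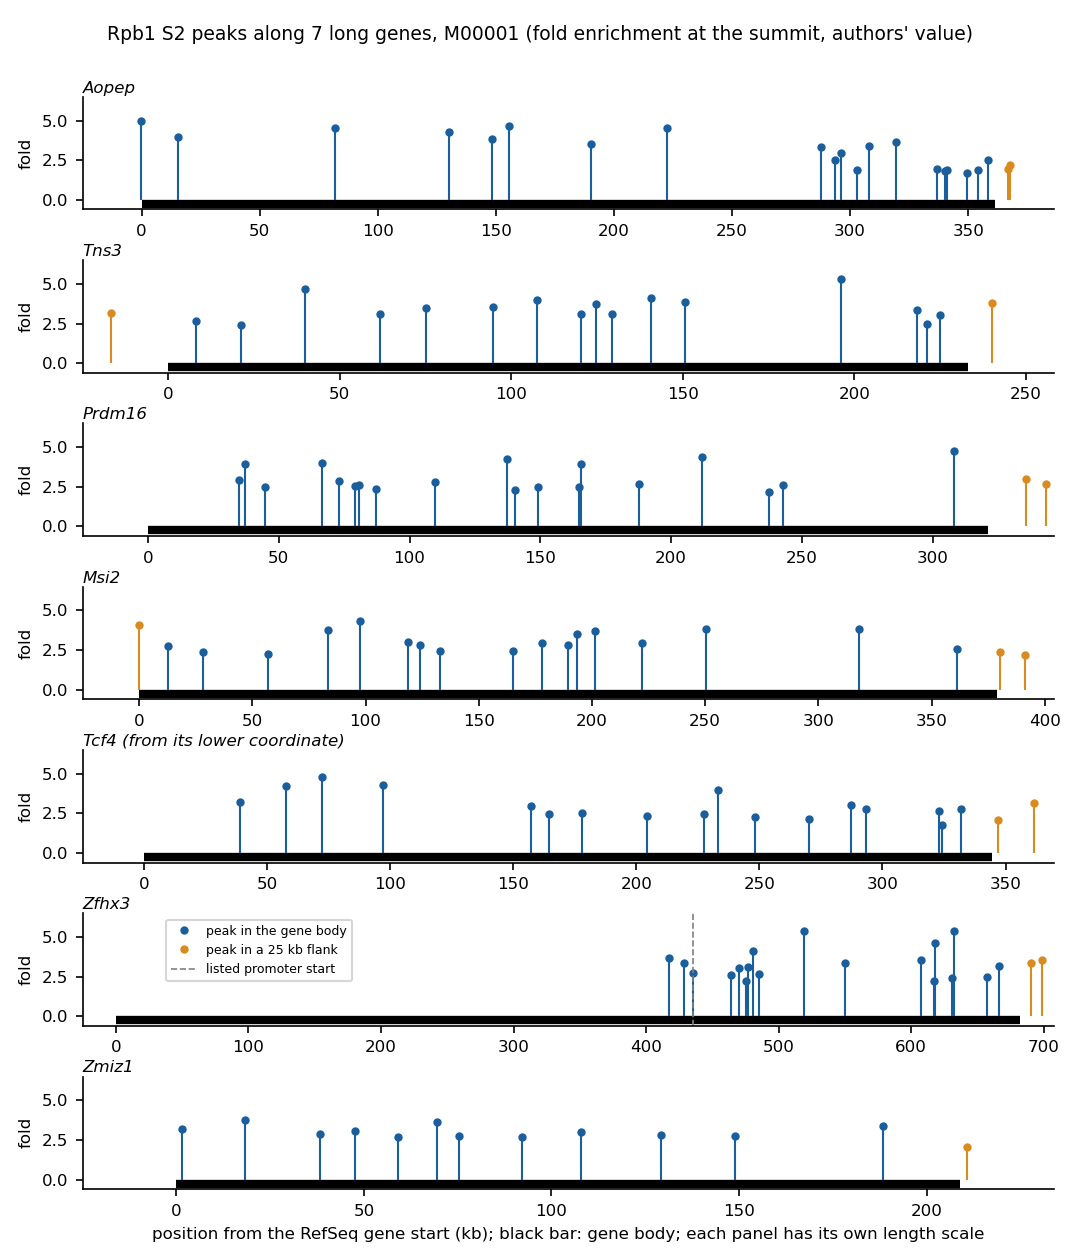
Rpb1 S2 peaks of M00001 along the 7 genes and 25 kb each side. Each stem is a peak at its summit, its height the authors' fold enrichment, the black bar the gene body, blue a peak in the body and orange one in a flank, and the x axis kb from the gene's start (for Tcf4 from its lower coordinate, for Zfhx3 from the longer model with the listed start dashed); peaks stood apart along each gene, with folds of 1.69 to 5.38.

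S2 in the bodies chose these genes, so its density there is set beside that of the flanks as a description only. The bodies had 4.7 S2 peaks per 100 kb and the 25 kb flanks 4.0, from 119 and 14 peaks, a ratio of 1.18 with an exact 95% interval of 0.674 to 2.22 that covers counting error only. The flanking peaks were not even on both sides. In the 6 members with a listed start, 10 of the 12 flanking S2 peaks lay past the gene's end and 2 before its start, which is 83.3% downstream (exact binomial interval 51.6 to 97.9%), or 6.67 against 1.33 per 100 kb. The other long genes with at least 10 S2 peaks had 44 of 63 past the end, 69.8% (57.0 to 80.8%), and those with at least 1 had 67.1%. The side is thus shared with other long genes that carry S2, and the intervals overlap.

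All 6 had at least 1 S2 peak in the 25 kb past the end, beside 34.1% of all long genes with a listed start, 43.5% of the other long genes with at least 1 S2 peak in the body and 71.4% (exact binomial interval 53.7 to 85.4%) of the 35 others with at least 10. The lower bound of the interval for 6 of 6 is 54.1%, so both intervals overlap. Aopep had 2 there, inside Fancc, with folds of 1.94 and 2.2, and without Aopep the count was 8 of 10. Prdm16 had 2, with folds of 2.97 and 2.67, and the first lay 335.6 kb from its start beside Gm52687, an lncRNA gene. The second, at 343.6 kb, lay inside Arhgef16, a protein-coding gene at 337.3 to 358.9 kb, so it cannot be assigned to Prdm16. Msi2 had 2, with folds of 2.36 and 2.22, and Zfhx3 had 2, with folds of 3.34 and 3.58. Tns3 had 1 with a fold of 3.79 and Zmiz1 had 1 with a fold of 2.07. Tcf4's 2 flanking peaks were both at its higher coordinate, with folds of 2.08 and 3.18.

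The body to flank ratios of the other targets are given side by side, from few flanking peaks. S5 had 17 and 2 peaks, a ratio of 1.18 like that of S2. HA of M00001 had 30 peaks in the bodies and 1 in the flanks, 4.15 times denser inside. H3K27ac with ac647 had 119 and 3, 5.49 times denser inside. The ratio was 2.9 for ac4729, 1.85 for p65 and 1.8 for HA of M00002. IgG of M00002 had 6 and 1 peaks, a ratio of 0.83. Without a peak in the flanks there was no ratio for p300 (20 in the bodies), Cbp (9) and IgG of M00001 (1). In the 6 genes with a listed start, S5 had 0 peaks past the end and 2 before the start, and HA of M00002 had 4 on each side.

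**Figure D3:**
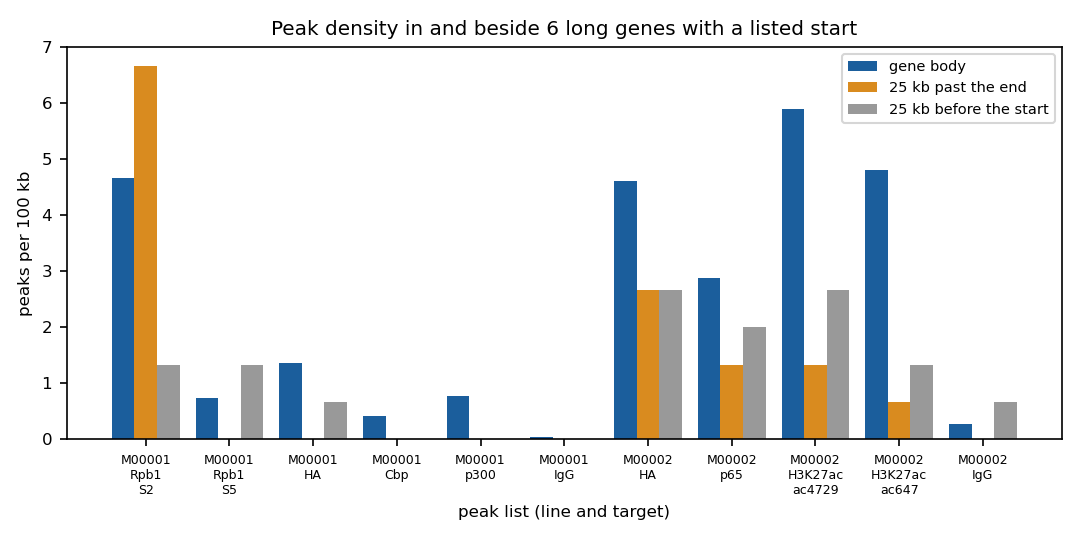
Peaks per 100 kb in the gene body (blue), in the 25 kb past the end (orange) and in the 25 kb before the start (grey), for each of the 11 lists in the 6 genes with a listed start. S2 has 4.67, 6.67 and 1.33 per 100 kb, while H3K27ac with ac4729 has 5.9, 1.33 and 2.67; the bars are totals over the 6 genes without an error.

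S5 was present in every body. All 7 members had at least 1 S5 peak, beside 47.7% of all long genes, with 17 in all, and none of the 17 had a −log10 q of at least 5. All 7 had S2, with 119 peaks, beside 65.1% of long genes; the choice of genes fixes this, so the higher number for S2 than for S5 is not a result. Aopep had 6 S5 peaks, Zfhx3 3, Tns3, Prdm16 and Msi2 2 each, and Tcf4 and Zmiz1 1 each. Of the 17, 13 overlapped an S2 peak by at least 1 bp, 76.5%, against 52.9% in the other long genes. Read the other way 10.9% of the members' S2 peaks overlapped S5, 13 of 119, against 20.7% in the other long genes (19.5 to 21.9%). S2 chose the genes, so nothing is read from either share. The whole lists held 11032 peaks for S5 and 22984 for S2. The shares of long genes here and below are not matched for length. Their median length was 172 kb, against 345 kb for the members. Sfi1, Col23a1, Farp1, Fndc3b and Tead1, ranked beside the members, also had S5, p300, HA of M00002, p65 and H3K27ac with both antibodies. Presence of these targets is thus not particular to the 7.

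The fusion's HA tag was found in all members in at least 1 line. HA of M00002 was in all 7 bodies, with 104 peaks, beside 78.4% of long genes, and HA of M00001 in 6, with 30 peaks, beside 40.5%. Both lines had HA in the bodies of 6 members, beside 37.2% of long genes. Prdm16 had most in each line, 10 peaks in M00001 and 29 in M00002, followed by Msi2 with 8 and 21. Zmiz1 had 5 and 15, Zfhx3 3 and 16, Tns3 2 and 11, and Aopep 2 and 9. Tcf4 had 0 in M00001 and 3 in M00002, with folds of 7.12 to 10.5, between 287.2 and 324.1 kb from its lower coordinate. Tcf4 and Msi2 thus had 17 S2 peaks each while their HA counts lay far apart.

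IgG, the control for unspecific release, was in 1 body in M00001, that of Tns3, beside 10.7% of long genes, and in 3 in M00002, those of Aopep, Prdm16 and Msi2, beside 35.3%. The totals were 1 and 6 peaks, and none had a −log10 q of at least 5. Only 1 of the 119 S2 peaks, in Tns3, overlapped IgG of M00001, and none of the HA peaks of either line overlapped IgG of either line. Lists differ in length, so counts of HA and IgG peaks do not measure enrichment against each other.

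**Figure D4:**
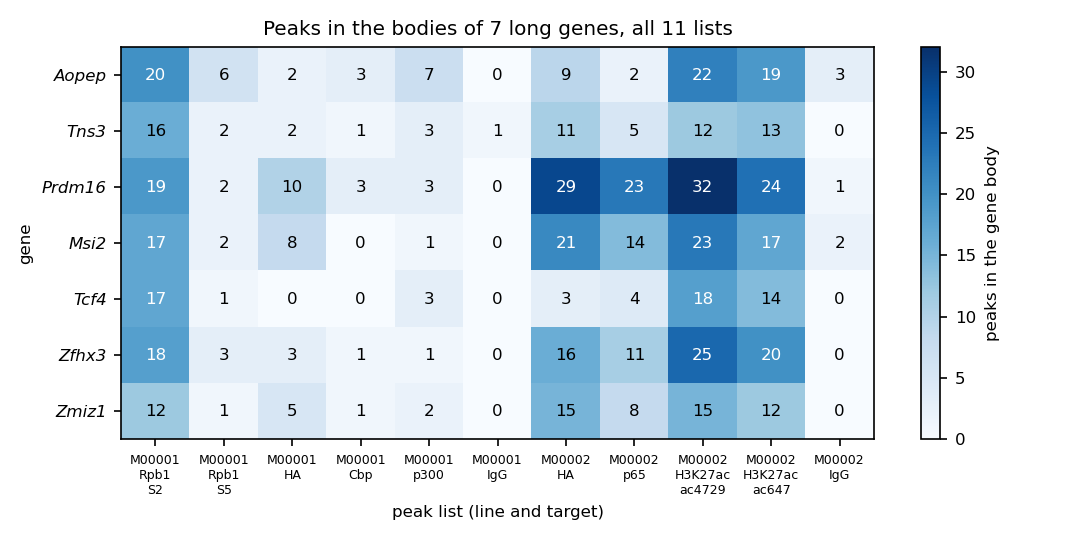
Number of peaks in each gene body (rows) for each of the 11 lists (columns, by line and target); darker blue is more peaks. Prdm16 has the highest count for HA in both lines, p65 and H3K27ac, while S2, on which the genes were chosen, ranges from 12 to 20.

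Most HA peaks of M00001 in these genes lay on HA peaks of the other line. The share was 23 of 30, 76.7% (57.7 to 90.1%), against 51.8% in the other long genes (49.2 to 54.3%). Of the same 30 peaks 66.7% overlapped p65 and 80.0% H3K27ac with ac647, against 45.0% and 38.9% in the other long genes. With Prdm16 left out, 20 peaks remained. Of these, 13 overlapped HA of M00002 (40.8 to 84.6%), an interval that includes the 51.8% of the other long genes. For p65 the count was 10 (50.0%, against 45.0% in the other long genes). For ac647 it was 14 (70.0%, interval 45.7 to 88.1%), against 38.9%. All 10 HA peaks of Prdm16 in M00001 overlapped HA of M00002, p65 and ac647. The difference between members and other long genes in HA shared by the lines thus rests largely on Prdm16. S2 overlapped 70.0% of the 30, against 35.6%, but S2 chose the genes, so nothing is read from that share.

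HA of M00002 could be set beside p65 and H3K27ac of its own line, though p65 signal may come from the fusion itself. Of its 104 peaks in the members 51.0% overlapped p65 (41.0 to 60.9%), against 31.2% in the other long genes. For ac4729 the shares were 55.8% and 36.2%, and for ac647 52.9% and 22.6%. Without Prdm16 they were 46.7%, 52.0% and 46.7% of 75 peaks. Peaks of these targets were also denser in the members. Median densities per 100 kb were 2.14 for p65, 6.07 for ac4729 and 5.26 for ac647, against 0.291, 0.948 and 0.238 over all long genes. For HA of M00002 they were 4.72 and 0.851. The part of density in the overlap shares, here and for HA of M00001, was not tested. p65 was in all 7 bodies, beside 56.4% of long genes, with 67 peaks, 23 of them in Prdm16 and 2 in Aopep.

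H3K27ac was frequent in every member, also where HA was sparse. All 7 members had it with both antibodies, beside 74.8% of long genes for ac4729 and 53.5% for ac647, with 147 and 119 peaks. Prdm16 had 32 and 24, Zfhx3 25 and 20, Msi2 23 and 17, Aopep 22 and 19, Tcf4 18 and 14, Zmiz1 15 and 12, and Tns3 12 and 13. Tcf4 and Aopep, with the fewest HA peaks of M00002, stood within the range of the other 5 genes. Of the 119 S2 peaks 49.6% overlapped ac4729 (40.3 to 58.9%) and 41.2% ac647 (32.2 to 50.6%), against 38.5% and 24.4% of the S2 peaks in other long genes. The length covered by these same S2 peaks chose the genes, so nothing is read from that difference.

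Both acetyltransferases had peaks in the bodies. p300 was in all 7 bodies, as in the genes ranked beside them, against 33.8% of long genes, with 20 peaks. Cbp was in 5, beside 32.6%, with 9. At a −log10 q of at least 5 these were 2 members for p300 and 1 for Cbp. Aopep had 7 p300 peaks, the most of any member, and 3 Cbp peaks, as many as Prdm16, with p300 folds of 3.43 to 5.05; it had only 2 HA peaks in M00001. Tcf4 and Msi2 had no Cbp peak, and Tcf4 had 3 of p300. Of the S2 peaks 12.6% overlapped p300 and 5.88% Cbp, against 13.3% and 7.62% in the other long genes, and 17.6% overlapped HA of M00001, against 12.0%. S2 peaks chose the genes, so nothing is read from these shares either.

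Of the 119 S2 peaks, 75 overlapped a peak of another target, IgG aside, and 44 overlapped none. The 75 had a median fold of 3.31 and a median width of 464 bp, and the 44 had 2.65 and 307 bp. Msi2 had 15 of its 17 S2 peaks on another target, Aopep 10 of 20. The S2 peaks that stood alone were thus lower and narrower by median, and the part of peak strength in this was not tested.

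Overlapping peaks of the 9 lists other than IgG were joined into 281 sites in the 7 bodies. Of these, 149 had 1 list only, 34 had at least 5, and 5 had 8 of the 9. Prdm16 held 2 of the 5. At chr4:154470734-154473047, 165.5 kb into the gene, HA reached 16.1 in M00001, its highest in any member, and 21.5 in M00002, with S2 at 3.91, Cbp at 4.61, p300 at 5.34 and p65 at 16.6. H3K27ac there was 6.0 with ac4729 and 7.91 with ac647, the highest of both antibodies in this gene, and S5 was the list without a peak. At chr4:154569587-154571282, 66.9 kb in, S5 was present at 4.7 and Cbp was the absent list, with HA at 13.9 in M00001 and 21.4 in M00002.

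The site with the highest HA fold in M00002 lay elsewhere in Prdm16 and had no S2. At chr4:154625919-154627677, 10.6 kb in, HA was 27.4 in M00002 and 12.9 in M00001, with p65 at 20.3, Cbp at 5.08 and p300 at 5.29. With the HA over the start, these 2 sites lie upstream of the first S2 peak of the gene. HA and S2 peaks of Prdm16 therefore coincided at only some sites, 5 of the 10 HA peaks of M00001.

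**Figure D5:**
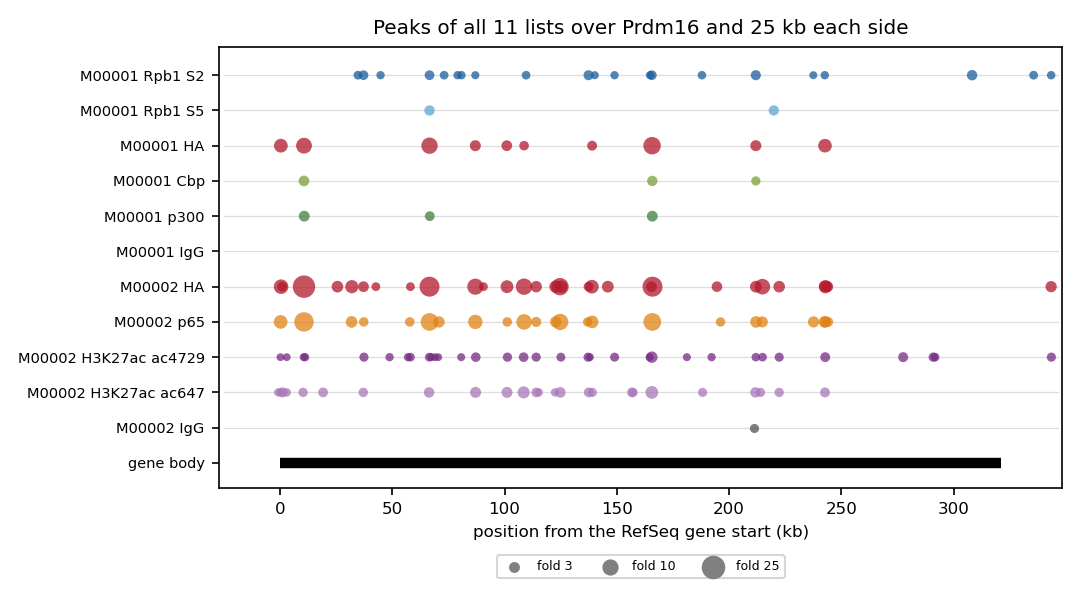
Peaks of all 11 lists over Prdm16 and 25 kb each side, each at its summit in kb from the gene start; a larger circle is a higher fold within that list, and the black bar is the gene body. HA and p65 circles are largest at 10.6, 66.9 and 165.5 kb, and the first S2 summit is at 34.7 kb.

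The other sites with 8 lists were 1 each in Aopep, Msi2 and Zmiz1. In Aopep, at chr13:62979267-62980967, 15.2 kb in, HA was 4.74 in M00001 and 8.41 in M00002, with S2 at 3.97 and S5 at 4.22. In Msi2, at chr11:88528555-88529596, 189.2 kb in, HA was 4.94 in M00001 and 11.6 in M00002, with S5 at 3.43 and p300 at 3.61. In Zmiz1, at chr14:25526855-25527957, 69.5 kb in, Cbp was 4.82 and p300 4.42, with S2 at 3.63 and no S5. Among other sites, Msi2 had HA at 20.8 in M00002 and 9.61 in M00001 at chr11:88689780-88691865, 27.5 kb in, with p65 at 18.1.

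Zfhx3 had its strongest HA before its listed start. At chr8:108695660-108697156, 417.1 kb into the longer model, HA was 22.8 in M00002 and 6.55 in M00001, with p65 at 12.0 and S2 at 3.69. Tns3 had HA at 12.1 in M00002 and 9.91 in M00001 at chr11:8658765-8659839, 5.5 kb in, with p65 at 12.2 and no S2. In Tcf4 the sites with most lists had no HA of M00001: at chr18:69666163-69668017 they were S2, p300, HA of M00002, p65 and H3K27ac.

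Genes from 3 other lists were set beside the members, whose choice fixes that nearly all other genes have less S2. S2 was in 65.1% of all long genes, and 4 of the paralogs, 15 of the progenitor regulators and all 20 genes of the neuronal list below reach 100 kb. Of 13 paralogs named for the members 11 had S2, led by Tns1, the paralog of Tns3, with 4492 bp, Tcf12 with 3140 bp and Tcf3 with 1282 bp, both E proteins like Tcf4, and Msi1 with 925 bp. Of 18 long regulators of neural progenitors 16 had S2, among them Nfia at 6080 bp, Nfib at 4660 bp and Tcf7l2 at 3469 bp. Of 20 genes listed here as very long and neuronal 9 had S2, among them Magi2 with 1268 bp and Kcnip4 with 1004 bp. The median length of the 20 is 1550 kb and their median covered length 0 bp, against 345 kb and 7306 bp for the members. Likeness was the mean absolute difference, over the 11 lists, between a gene's percentile of peaks per 100 kb and the median percentile of the 7 members. The other long genes nearest that median were Sik3 at 2.34 percentile points, Prr5l at 4.95, Cmip at 5.11, Lrrfip1 at 5.27 and Igf1r at 5.49. The members themselves lay from 2.45 for Zmiz1 to 15.8 for Tcf4, so they are not a tight group by this measure. S2, which chose the members, is 1 of the 11.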

How the data were processed

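Peaks were called by the authors for each library, 1 list per library, and were not pooled. The build mm10 and the tools MACS2, Bowtie2 2.3.5.1, deepTools, FastQC and Trim Galore are named per the submitters' processing notes; settings and the control used in calling are not given in the sources used here. Per the labels' tool list and MACS2's column order, the deposited lists give each peak a score, a fold enrichment (a ratio over background), the summit's distance and, as −log10, its q-value and its p-value. The score and p columns were not used beyond checking their ranges. In M00002 the names of the p65 and HA lists hold a 120 bp mark of unstated meaning. The lists hold no read counts, so depth is unknown. The smallest −log10 p was 3.0 to 3.01 in every list, and no list was limited by q.

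From these, peaks on chromosomes 1 to 19 and X were joined to RefSeq genes of GRCm38.p6 by overlap of at least 1 bp, in the body and in 25 kb each side. Background is the 2427 protein-coding genes of at least 100 kb. Intervals of shares are 95% and exact (Clopper-Pearson) and speak of counting error alone; peaks of 1 gene are not independent. The interval code was tested on simulated data. Alternatives were other rankings, −log10 q of at least 2 or 5, removal of IgG-overlapping peaks, 50% or 1 kb overlap, other flanks, summits and longer genes; 4 more were chosen after seeing the data. Genes named are the members, those ranked beside them, paralogs, progenitor regulators, genes listed as very long and neuronal, and the 5 most alike. Values of some genes the rule names are not reported here. The members and lists were chosen with earlier results of these data known. Python 3.11.15, numpy 2.4.6, pandas 2.3.3, scipy 1.17.1 and matplotlib 3.10.9 were used.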

Additional observations from a re-analysis of the deposited data

How the results depend on the processing

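Of 99 values for several genes or lists recomputed under another setting, 72 stayed within the exact interval of a share, or within 1.5 times a count, and 27 did not. Ranked by share of the body covered, 0 of the 7 genes were among the first 9, against 7 by covered length. By the number of 10 equal parts with S2, 4 were, but genes with equal numbers were ordered by covered length, which chose the members. Farp1, Fndc3b and Tead1, which are not listed, also had S2 in 9 parts, so nothing is read from that count. By covered length with a −log10 q of at least 5, 4 members were among the first 9. At that q the genes with a peak numbered 0 for S5, 1 for Cbp, 2 for p300, 0 for IgG of M00001 and 0 for IgG of M00002. With 50% of the peak as minimum overlap, S2 overlapped S5 in 2.52%, HA of M00001 in 8.4% and IgG of M00001 in 0.0%, and HA of M00001 overlapped p65 in 46.7%. Restricted to HA at that q, HA of M00001 overlapped p65 in 91.7% and S5 in 8.33%, and HA of M00002 overlapped p65 in 71.2%, ac4729 in 72.9% and ac647 in 69.5%. Among genes of at least 150 kb the share with a peak was 63.1% for S2, 52.0% for S5, 45.9% for HA of M00001, 38.8% for Cbp, 39.3% for p300, 13.8% for IgG of M00001, 83.3% for HA of M00002, 62.4% for p65, 57.2% for ac647 and 42.4% for IgG of M00002. The body to flank ratio of S2 was 0.823 with 10 kb flanks, so its direction changed there, 1.35 without other genes and 1.63 at that q; no call rested on it. Fewer peaks pass a stricter q by construction; for the other settings the cause was not tested. Depth is unknown for every library.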
